A study of Mus musculus with 7 samples.

Results

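The proteasome is the main protein-degrading machine of the cytosol and nucleus. Its core particle is a barrel of stacked rings, in which alpha subunits gate the entrance and beta subunits line the chamber and carry the proteolytic sites. A regulatory particle of a base, with a ring of ATPases that unfolds substrates, and a lid, which removes ubiquitin, feeds proteins into the core; dedicated chaperones assemble both, and activator caps can take the place of the regulatory particle. Plasma cells (PCs) make and secrete large amounts of antibody, and misfolded chains that leave the endoplasmic reticulum are degraded by this machine, to whose inhibition PCs are known to be sensitive.

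The 48 genes described here are those, of 48795 mouse genes in a table of transcript abundances, whose symbol begins with Psma, Psmb, Psmc, Psmd, Psme, Psmf or Psmg followed by a number. Of the 54 rows with such a symbol, 2 were left out as the inducible catalytic subunits Psmb8 and Psmb9 and 4 as pseudogenes, which were listed at 0 in every library. By role, 14 of the 48 are core subunits (7 alpha, 4 non-catalytic beta and 3 catalytic beta) and 17 are regulatory particle subunits (6 ATPases and 3 other subunits of the base, and 8 lid subunits). The other 17 are 3 chaperones of the regulatory particle, 4 chaperones of the core, 5 genes of activator caps, the inducible catalytic subunit Psmb10, the regulator Psmf1, Psma8 and Psmb11, whose use is known from testis and thymus, and Psmc3ip, a recombination factor that shares only the letters of its symbol.

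RNA was sequenced in bulk from B-lineage cells sorted from spleens of female wild-type C57BL/6 mice aged 8 to 12 weeks, 10 days after sheep red blood cells were given intravenously, a particulate antigen that raises germinal centers. Spleen cells were labelled with magnetic beads against CD43, freed of red cells and sorted. Memory B cells (MBCs; 3 libraries) were sorted as B220+ CD138- IgD- CD38+ CD273+, and PCs (4 libraries) as B220lo CD138+ IgD-. All mice carried the same immunization and genotype, so the comparison is of the cell types at 1 time. The labels do not say that the libraries came from separate mice, so p-values measure the spread between these libraries, which may in part be technical.

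Values are TPM divided by a scaling factor for each library (scaled TPM), because immunoglobulin genes took 49.4 to 55.9% of the TPM of PC libraries and 1.65 to 3.16% of that of MBC libraries. TPM is per transcript length, so levels of different genes can be compared, but it holds no read totals, so the depth behind a value is unknown. MBC replicates 1 and 2 listed 12983 and 11527 genes above 0, MBC replicate 3 listed 18061 and the PC libraries 14463 to 16768. MBC replicate 3 stood apart from its label in part: of the sorting markers, Cd38 lay at 6.77 scaled TPM against 130 and 186 in MBC replicates 1 and 2, and at 9.89 to 21.3 in PC libraries. The 6 memory B cell markers summed to 1316, 1944 and 530 scaled TPM over MBC replicates 1 to 3, against 123 to 161 in PC libraries. The 6 plasma cell markers summed to 189, 149 and 294 in the MBC libraries and to 9613 to 16540 in PCs, with Sdc1 (CD138) at 0, 0 and 0.058 in MBCs. The 8 proliferation genes summed to 977 in MBC replicate 3, above its fellow libraries (165 and 189) and all PC libraries (502 to 709). Erythroid genes, chiefly globins, summed to 3214 in MBC replicate 2 and to at most 102 in any other library. T cell genes summed to 0, 0 and 1.08 in MBCs and 14.6 to 35.2 in PCs, and myeloid genes to 5.73 to 39.6 across libraries. The part of these differences in the values below was not tested, and each count over members is given with and without MBC replicate 3.

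Of the proteasome genes, 1 was called higher in PCs and none lower. The gene was Psme4, the large monomeric activator cap of the core, 1.37 higher in PCs on the log2 scale (adjusted p = 0.0413, limma). Its call was lost without any 1 library other than MBC replicate 3, and with TPM as deposited. Of the 48 genes, 46 reached 1 TPM in 3 libraries and were tested; Psma8 was listed at 0 throughout and Psmb11 did not exceed 0.236 scaled TPM. The share of genes called higher in PCs among all 11573 tested was 6.41%, and the share called lower was 2.14% (limma, adjusted p under 0.05). At an unadjusted p under 0.05, 10 of the 46 were higher and 0 lower in PCs, where 15.3% of all genes tested were higher. All PC libraries lay above all MBC libraries for 5 of the 46 (Psmb1, Psmd1, Psmd7, Psmd12 and Psme4), against 13% of all genes tested. They lay below all MBC libraries for 1 (Psme2), a direction for which no share over all genes was computed. The share of members called and the share with all PC libraries higher were thus no higher than among all genes.

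The log2 fold change was above 0 for 41 of the 46 genes, where 55.5% of all genes tested were above 0, and its median was 0.76 against 0.14 over all genes tested. Of the 46, 38 lay above that median of all genes. MBC replicate 1 carried part of this: without it 32 of the 46 lay above 0 and 28 above the median of all genes, and their median was 0.60 against 0.16. With TPM as deposited, where the median of all genes was -0.91, only 14 of the 46 lay above 0 and their median was -0.41, so the sign holds relative to other genes and not on the unscaled values, and all comparisons below are of scaled values unless stated. Relative to the median of all genes, the median of the 46 was higher by 0.62 in the scaled values, 0.50 in TPM as deposited, 0.65 with immunoglobulin genes removed and 0.71 after quantile normalization. The median width of the 95% confidence interval to either side of a fold change was 1.16 on the log2 scale, wider than a 2-fold change.

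**Figure D1:**
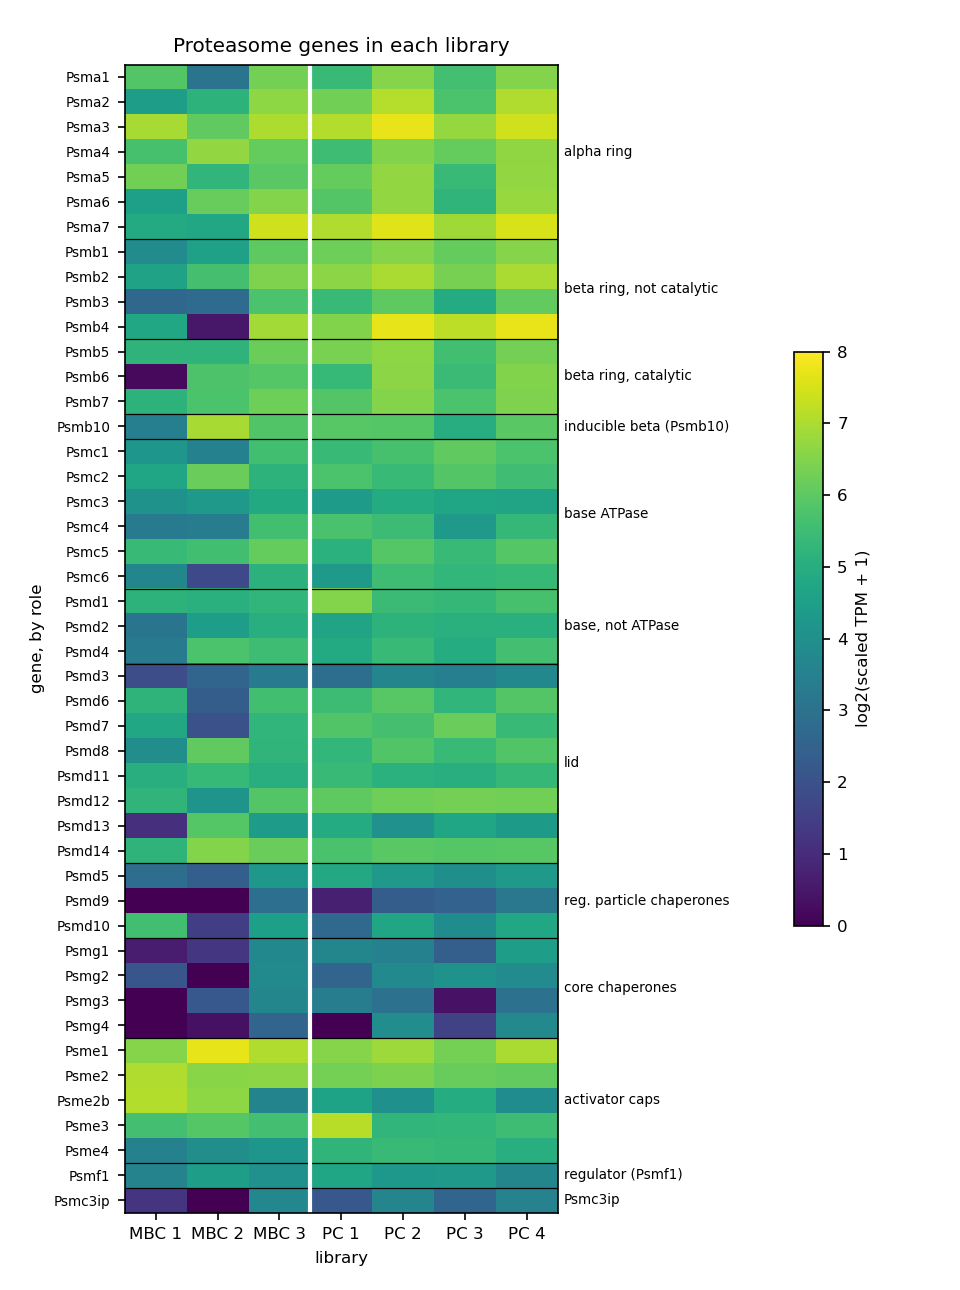
Each row is 1 of the 46 tested genes, grouped by role, each column 1 library, and the colour is log2(scaled TPM + 1) from 0 to 8. MBC replicates 1 and 2 hold most of the dark cells. Among them are Psmb6 at 0.148 scaled TPM in MBC replicate 1 and Psmb4 at 0.445 in MBC replicate 2. MBC replicate 3 lies within the PC range for 31 genes. The share over all genes was not computed, so the count cannot be read as particular to them.

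MBC replicate 3 decided most of the calls. It held the highest MBC value for 31 of the 46 genes (35.1% of all genes tested). It also lay within the range of the PC libraries for 31. No share over all genes was computed for that count, so it cannot be read as particular to these genes. Conversely, the lowest value of the 7 libraries was in MBC replicate 1 for 23 genes and in MBC replicate 2 for 16, where these libraries were lowest for 26.5 and 29.8% of all genes tested. Both lay below all PC libraries for 24 of the 46 genes (25.6% of all genes tested). Without MBC replicate 3, 16 of the 46 were called higher in PCs, against 13.8% of all genes tested, and 1 was called lower, against 7.97% of all genes tested. The 16 were Psma2, Psma7, Psmb1, Psmb2, Psmb3, Psmb4, Psmc1, Psmc4, Psmc6, Psmd5, Psmd7, Psmd12, Psme4, Psmg1, Psmg2 and Psmc3ip, and the lower one was Psme2b. The median log2 fold change was then 1.19, against 0.19 over all genes tested. That fit compares 2 MBC libraries with 4 PC libraries and is given beside each group of genes, because proliferation genes and sorting markers differed in the library it leaves out.

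**Figure D2:**
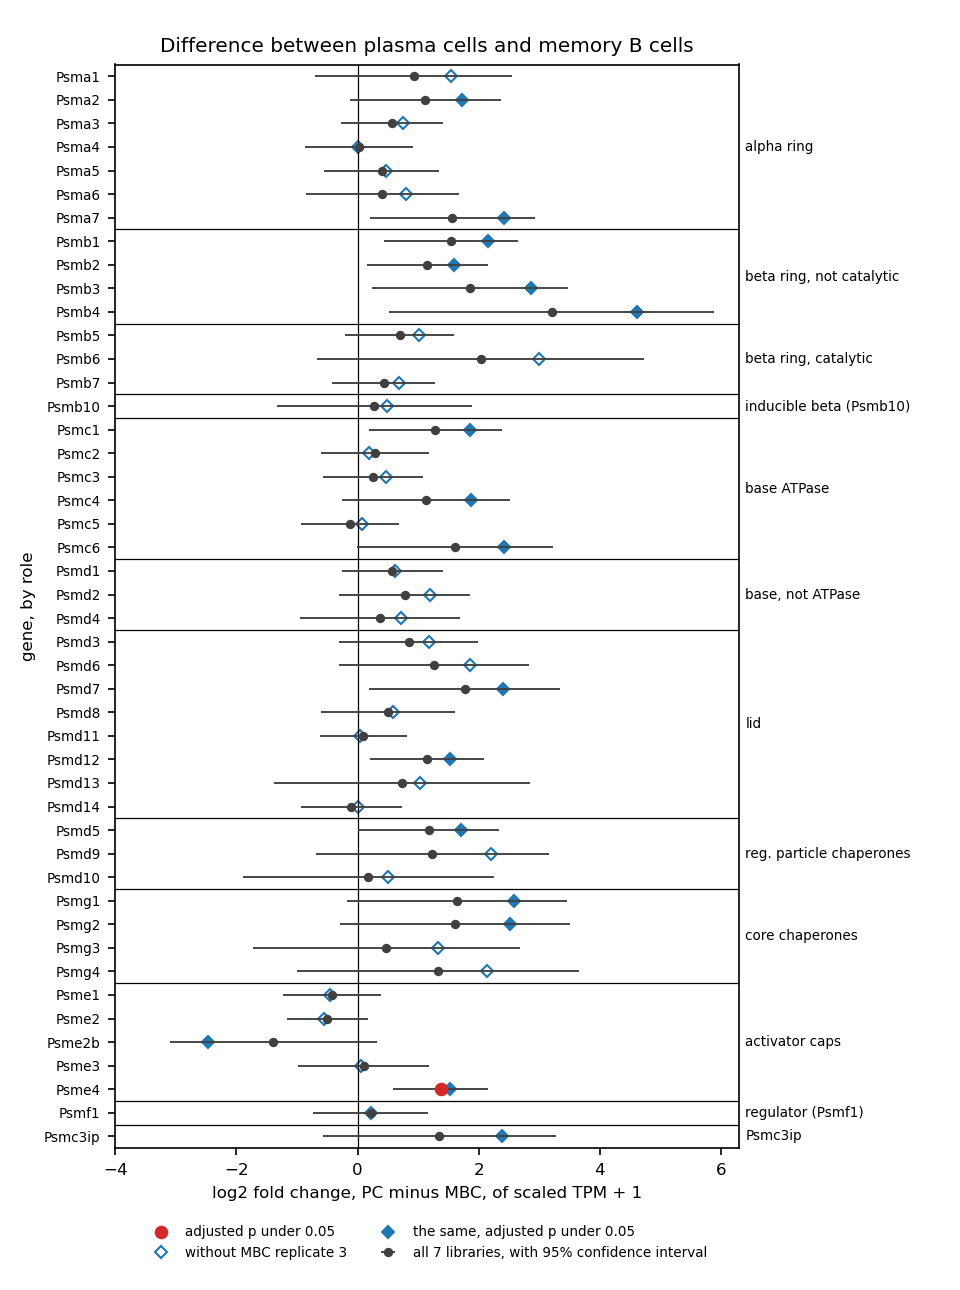
Circles give the log2 fold change, PC minus MBC, of each tested gene with its 95% confidence interval over all 7 libraries, and diamonds the value without MBC replicate 3; filled colour marks adjusted p under 0.05. With all libraries only Psme4 is marked; without MBC replicate 3 the diamonds of 16 genes to the right of 0 and of Psme2b to the left are filled.

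The 7 alpha subunits form the outer rings and the gate of the core. None of them passed the test (1 of 7, Psma7, at an unadjusted p under 0.05); their log2 fold changes ran from 0.03 to 1.56 (median 0.57, and 0.30 without MBC replicate 2), and 2 of 7 were called higher without MBC replicate 3. Psma7 had the highest fold change of the ring, at 28.8, 26.3 and 169.5 scaled TPM in the MBC libraries, in the order of replicates as throughout, and at 131, 194, 116 and 180 in those of PCs. MBC replicates 1 and 2 were thus low and MBC replicate 3 was in the PC range. The log2 fold change of Psma7 was 1.56 (SE 0.61, adjusted p = 0.151, limma), and 2.42 (adjusted p = 0.0024) without MBC replicate 3. Psma4 had the lowest, with 50.1, 104 and 68.2 in MBCs and 44.6, 88.7, 68.6 and 100 in PCs. The groups overlapped fully, and the 95% confidence interval of its log2 fold change ran from -0.86 to 0.92.

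The 4 non-catalytic beta subunits had the highest median fold change of the 3 kinds of core subunit. Their log2 fold changes were 1.15 to 3.20 (median 1.70), each with an unadjusted p under 0.05 but none past the adjusted threshold, and 4 of 4 were called higher without MBC replicate 3. Psmb1 was at 13.4, 22.6 and 63.8 scaled TPM in MBCs and at 73.5, 91.9, 68.0 and 92.9 in PCs. All PC libraries lay above all MBC libraries, higher by 1.55 on the log2 scale (SE 0.49, adjusted p = 0.0902, limma). Psmb4 was at 26.9, 0.445 and 118.9 in MBCs and at 88.9, 209, 145 and 212 in PCs. Its MBC libraries spread more on the log2 scale (SD 3.25) than those of any other of the 46 genes, with Psmb6 next, and the log2 fold change of 3.20 had an interval from 0.52 to 5.88. Psmb3 was at 5.58, 5.97 and 52.6 in MBCs and 41.9, 64.1, 29.3 and 67.1 in PCs, so that MBC replicates 1 and 2 were alike and MBC replicate 3 lay among the PCs. Psmb2 had the smallest fold change of the 4, with 23.7, 49.0 and 87.3 in MBCs against 97.1, 125, 80.4 and 125 in PCs.

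The constitutive catalytic subunits were not called in either fit, and 0 of 3 had an unadjusted p under 0.05 with all libraries. Psmb5, which carries the chymotrypsin-like activity that proteasome inhibitor drugs chiefly target, was at 36.0, 35.7 and 72.1 scaled TPM in MBCs and 82.2, 98.1, 46.4 and 79.4 in PCs. MBC replicate 3 lay between PC replicate 3 and PC replicate 4, so the groups overlapped, and the log2 fold change was 0.69 (SE 0.40, adjusted p = 0.323, limma). Psmb6, the caspase-like subunit, was at 0.148, 52.9 and 58.1 in MBCs and 40.4, 96.8, 42.7 and 87.8 in PCs. Its fold change of 2.03 (interval -0.67 to 4.74) rested on MBC replicate 1, where it was nearly absent. Psmb7, the trypsin-like subunit, was at 35.2, 52.3 and 74.0 in MBCs and 57.7, 89.7, 52.7 and 86.9 in PCs (0.43, interval -0.41 to 1.27).

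Immune cells can replace these subunits with Psmb8 (for Psmb5), Psmb9 (for Psmb6) and Psmb10 (for Psmb7). Psmb10 was at 9.95, 123 and 56.0 scaled TPM in MBCs and at 60.0, 58.4, 30.6 and 60.3 in PCs. The MBC libraries spanned both sides of the PC range, and the log2 fold change was 0.27 (SE 0.72, adjusted p = 0.849, limma). For the other inducible subunits, the mean of Psmb8 was 120 ± 18.0 (SD, n = 3 MBC libraries) and 121 ± 38.6 (SD, n = 4 PC libraries), and that of Psmb9 was 97.8 ± 60.9 and 227 ± 35.4. For Psmb9 all PC libraries lay above all MBC libraries, with no call (1.46, adjusted p = 0.11, limma). Without MBC replicate 3 Psmb9 was called higher (1.90, adjusted p = 0.0264, limma), and Psmb8 and Psmb10 were not called. Within a library, the log2 ratio of Psmb8 to Psmb5 was 1.46, 1.77 and 0.91 in MBCs and 0.25, 0.72, 0.77 and 0.86 in PCs. It was lower in all 4 PC libraries than in all 3 MBC libraries by a mean of 0.73. Permuting the group labels over all 35 possible assignments gave an exact two-sided p = 0.0571 (0.171 adjusted over 3 ratios). That is the smallest p this two-sided test can give, so it could not reach 0.05 with these libraries. The ratios of Psmb9 to Psmb6 and of Psmb10 to Psmb7 differed by -0.57 and -0.16 (exact permutation p = 0.743 for each).

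Proteasome genes are known targets of the factor Nfe2l1, which binds antioxidant response elements. The core of that element, TGACNNNGC, was searched on both strands of promoters of 300 bases in the RefSeq table of build GRCm38.p6, which held 40 of the 48 genes. It was found in 6 of the 40 (15.0%) and in 14.0% of the promoters of 27025 genes. The 6 were Psmb5, Psmb6, Psmc6, Psmd9, Psmd12 and Psme4, each with 1 match. The promoters of the catalytic subunits Psmb5 and Psmb6 and of Psme4, the gene called higher with all libraries, are shown with the match in capitals. They run from 200 bases before the RefSeq start site to the 10 bases that begin there, on the strand of the gene. They lie at chr14:54617986-54618195 (minus strand), chr11:70525157-70525366 (plus strand) and chr11:30771575-30771784 (plus strand).
Psmb5: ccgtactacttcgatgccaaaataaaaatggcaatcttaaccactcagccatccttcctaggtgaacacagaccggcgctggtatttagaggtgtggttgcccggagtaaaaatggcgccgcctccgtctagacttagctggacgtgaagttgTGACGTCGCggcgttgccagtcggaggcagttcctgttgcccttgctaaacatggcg
Psmb6: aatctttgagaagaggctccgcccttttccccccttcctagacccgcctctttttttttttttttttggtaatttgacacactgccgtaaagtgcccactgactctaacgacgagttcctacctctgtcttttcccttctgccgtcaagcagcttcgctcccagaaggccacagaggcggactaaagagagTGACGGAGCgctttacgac
Psme4: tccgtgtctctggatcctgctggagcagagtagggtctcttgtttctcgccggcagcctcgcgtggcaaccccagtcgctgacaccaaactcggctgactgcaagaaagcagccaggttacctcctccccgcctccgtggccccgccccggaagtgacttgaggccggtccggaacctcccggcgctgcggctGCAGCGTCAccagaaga

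The match begins 47, 9 and 7 bases before the RefSeq start site in Psmb5, Psmb6 and Psme4. The gene coordinates given elsewhere are those of GENCODE M21, whose gene starts differ: the RefSeq start site lies 27 and 49 bases inside the GENCODE gene for Psmb5 and Psme4 and 10 bases ahead of it for Psmb6. The match in Psme4 is therefore inside the GENCODE gene. It reads in the direction of the gene in Psmb5 and Psmb6 and on the other strand in Psme4. Of the 6 genes with a match, Psme4 alone was called with all libraries, and Psmc6 and Psmd12 were called besides it without MBC replicate 3.

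The 6 ATPases of the base drive unfolding and translocation of substrates. None passed the limma test with all libraries (1 of 6, Psmc1, at an unadjusted p under 0.05); log2 fold changes were -0.13 to 1.60 (median 0.71), and 3 of 6 (Psmc1, Psmc4 and Psmc6) were called higher without MBC replicate 3. The median of the 6 was 1.17 without that library and 0.41 without MBC replicate 1, where 3 of 6 lay above the median of all genes in place of 5. Psmc6 had the highest, with 11.7, 2.37 and 34.6 scaled TPM in MBCs and 19.0, 45.1, 38.7 and 39.8 in PCs (1.60, SE 0.72, adjusted p = 0.21, limma). Psmc5 had the lowest, with 41.2, 47.2 and 68.2 in MBCs and 33.6, 58.6, 41.0 and 58.4 in PCs. Its groups overlapped and its interval was -0.93 to 0.68. Of the other base subunits, Psmd2, a scaffold that binds ubiquitin-like domains, was at 7.69, 21.4 and 32.1 in MBCs and 24.5, 35.2, 32.7 and 32.4 in PCs. Psmd4, a ubiquitin receptor, was at 8.64, 52.4 and 45.2 in MBCs and 28.7, 41.8, 29.9 and 47.4 in PCs. MBC replicate 1 was the lowest library for both, the groups overlapped, and neither was called in either fit.

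The 8 lid subunits ran from -0.10 to 1.77 on the log2 scale (median 0.79), none was called by limma with all libraries (2 of 8 at an unadjusted p under 0.05), and 2 of 8 (Psmd7 and Psmd12) were called higher without MBC replicate 3. Without MBC replicate 1 the median of the lid was 0.27, and 4 of 8 lay above the median of all genes in place of 6. Psmd7, which pairs with Psmd14 in the deubiquitinating module, was at 25.9, 2.98 and 37.5 scaled TPM in MBCs and 56.3, 49.4, 71.3 and 41.8 in PCs. All PC libraries lay above all MBC libraries, higher by 1.77 on the log2 scale (SE 0.70, adjusted p = 0.159, limma). Psmd14, the deubiquitinase itself, was at 35.7, 90.5 and 71.5 in MBCs and 51.5, 60.6, 57.7 and 59.3 in PCs. The PC libraries lay inside the MBC range, and the interval of the fold change was -0.94 to 0.74. The 2 genes of the module thus had fold changes at opposite ends of the lid, a difference that was not tested.

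Chaperones of the core were expressed at low levels and lay below 4 scaled TPM in MBC replicates 1 and 2. Psmg1, which pairs with Psmg2 to build the alpha ring, was at 0.527, 1.40 and 12.4 scaled TPM in MBCs and 11.8, 10.3, 4.32 and 21.1 in PCs. Psmg2 was at 3.41, 0 and 13.2 in MBCs and 5.16, 12.8, 16.4 and 13.5 in PCs. For both, MBC replicate 3 lay in the PC range and the other MBC libraries lay below it; the log2 fold changes were 1.64 and 1.61 (adjusted p = 0.252 and 0.283, limma), and both were called without MBC replicate 3 (2.58 and 2.52). Psmg3 was at 0, 3.56 and 11.9 in MBCs and 9.23, 6.93, 0.308 and 6.93 in PCs. Psmg4 was at 0, 0.283 and 5.05 in MBCs and 0, 14.2, 2.01 and 12.6 in PCs. The PC libraries of this second pair were themselves scattered, and neither gene was called in either fit.

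The 3 chaperones of the regulatory particle base did not pass the test with all libraries (1 of 3, Psmd5, at an unadjusted p under 0.05). Psmd9 was at 0, 0 and 6.58 scaled TPM in MBCs and 0.645, 4.18, 4.77 and 8.28 in PCs. Psmd10, also known as gankyrin, was at 47.1, 1.77 and 22.0 in MBCs and 5.71, 25.9, 13.8 and 26.4 in PCs, so that the libraries of MBCs lay on both sides of the PCs. Psmd5 was higher in PCs by 1.17 on the log2 scale (adjusted p = 0.202, limma), and 1.71 (adjusted p = 0.0244) without MBC replicate 3. Psmd9 and Psmg4 each reached 1 TPM in a single MBC library and passed the filter on low values through PCs.

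Activator cap genes differed among themselves in direction: 2 of 5 log2 fold changes were above 0 and 3 below, from -1.39 to 1.37, and only that of Psme4 was called. Psme4 (chr11:30771726-30880361, plus strand, GRCm38), which caps the core in the nucleus and acts without ATP, was at 10.5, 14.6 and 17.4 scaled TPM in MBCs and 36.6, 41.8, 39.6 and 32.4 in PCs. The groups were well apart, and MBC replicate 3 lay with the other MBC libraries. The log2 fold change was 1.37 (SE 0.35, interval 0.58 to 2.16, adjusted p = 0.0413, limma), and 1.52 (adjusted p = 0.0163) without MBC replicate 3. The call was close to the threshold. Without any 1 of the other 6 libraries the adjusted p was 0.0530 to 0.161 at log2 fold changes of 1.19 to 1.44. With immunoglobulin genes removed it was 0.109, and in TPM as deposited the difference was 0.10 (adjusted p = 0.859, limma). With title codes or replicate numbers, which recur in both groups, as a block in the fit, the adjusted p was 0.197 and 0.216 (limma).

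Psme1 and Psme2 form the interferon-inducible cap that is used with the inducible core. Psme1 was at 93.1, 209 and 130 scaled TPM in MBCs and 91.7, 113, 79.8 and 127 in PCs. Psme2 was at 130, 93.8 and 96.9 in MBCs and 79.4, 84.5, 69.6 and 66.7 in PCs. It was the one gene of the 46 with all MBC libraries above all PC libraries, and the share of all genes so separated was not computed. The log2 fold changes were -0.43 and -0.50 (adjusted p = 0.511 and 0.344, limma) and neither was called. Psme3, the cap of the nucleus that is not induced by interferon, was at 47.6, 58.9 and 47.7 in MBCs and 140.0, 37.9, 37.9 and 44.9 in PCs, where PC replicate 1 stood apart. Its log2 fold change was 0.10 with all libraries and -0.34 without PC replicate 1.

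Psme2b (chr11:48945354-48946190) is a copy of Psme2 (chr14:55587441-55591113) in a single exon, and the coding sequences are 99.3% identical over 717 bases, so reads of the pair can be split between them by the counting program. Psme2b was at 135, 97.8 and 11.2 scaled TPM in MBCs and 23.9, 15.3, 30.3 and 14.0 in PCs. It took 51.0, 51.1 and 10.4% of the sum of both genes in the MBC libraries and 15.3 to 30.3% in PCs. The sum was 265, 192 and 108 in MBCs and 103, 99.8, 99.9 and 80.6 in PCs, so all MBC libraries lay above all PC libraries, and the log2 fold change of the sum was -0.88 (adjusted p = 0.17, limma). Taken alone, Psme2b was called lower in PCs without MBC replicate 3 (-2.48, adjusted p = 0.00586) and not with it (-1.39, adjusted p = 0.3).

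**Figure D3:**
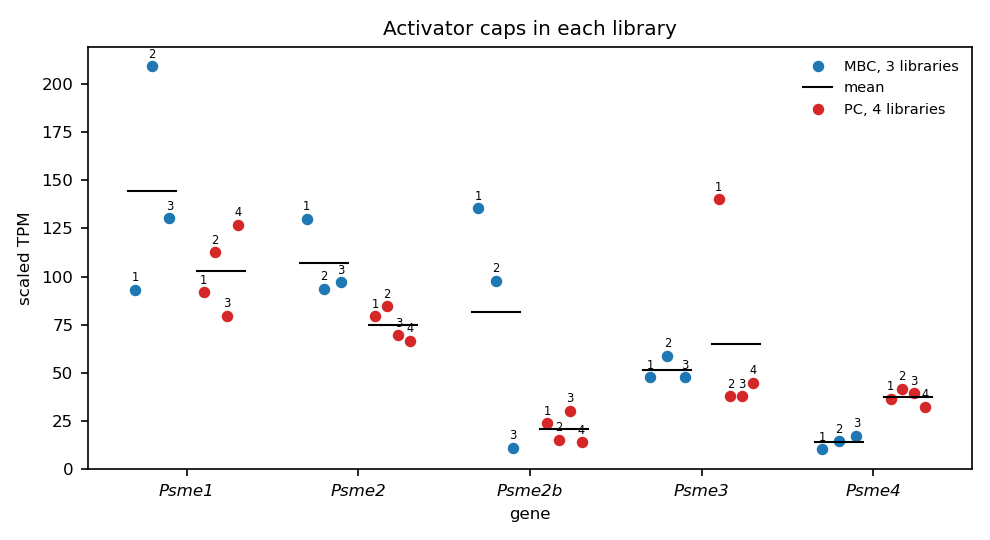
Points are the scaled TPM of the 5 activator cap genes in each library, numbered by replicate, with the mean of each group as a line. Psme4 separates the groups, at 10.5 to 17.4 in MBCs and 32.4 to 41.8 in PCs, PC replicate 1 stands apart for Psme3, and MBC replicate 3 for Psme2b.

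Psmf1, a regulator that binds the core, was at 10.8, 21.0 and 15.5 scaled TPM in MBCs and 25.1, 18.1, 19.0 and 11.6 in PCs, with an interval of the log2 fold change of -0.74 to 1.17. Psmc3ip, which is no proteasome gene, was at 1.35, 0 and 12.3 in MBCs and 3.65, 11.4, 5.11 and 10.7 in PCs and was called higher only without MBC replicate 3.

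The core and the regulatory particle were then compared within each library. The 14 core subunits summed to 519, 564 and 1224 scaled TPM in the MBC libraries and to 1036, 1704, 933 and 1635 in those of PCs. MBC replicate 3 exceeded PC replicates 1 and 3, so the core sums overlapped. The 17 regulatory particle subunits summed to 356, 549 and 682 in MBCs and to 693, 748, 702 and 755 in PCs. Here all PC libraries lay above all MBC libraries, though MBC replicate 3 and PC replicate 1 lay close to each other. Before scaling the order was the reverse, with regulatory particle sums of 648, 815 and 1399 TPM as deposited in MBCs and 440 to 571 in PCs, so the separation depends on the scaling. Scaled regulatory particle sums averaged 529 ± 164 in MBCs and 724 ± 31.6 in PCs, and core sums 769 ± 395 and 1327 ± 399 (SD over 3 and 4 libraries).

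The core made up 59.3, 50.7 and 64.2% of the sum of both particles in MBCs and 59.9, 69.5, 57.1 and 68.4% in PCs. The means differed by 5.65 percentage points, less than the SD within groups of 6.46, and the groups overlapped. On the log2 scale the mean of the core subunits exceeded that of the regulatory particle subunits by 0.58, 0.41 and 1.15 in MBCs and by 0.92, 1.47, 0.68 and 1.41 in PCs. The difference between groups was 0.41, near the SD within groups of 0.39. Per length, core transcripts were thus the more abundant in all 7 libraries, and whether their excess was larger in PCs could not be told at this spread. The median log2 fold change was 1.02 over the core and 0.73 over the regulatory particle, and 6 of 14 core and 5 of 17 regulatory particle subunits were called higher without MBC replicate 3, a difference between particles that was not tested. Both medians depended on single libraries: they were 0.66 and 0.23 without MBC replicate 1, where 11 of 14 core and 9 of 17 regulatory particle subunits lay above the median of all genes (13 and 14 with all libraries), and 1.57 and 1.03 without MBC replicate 3.

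**Figure D4:**
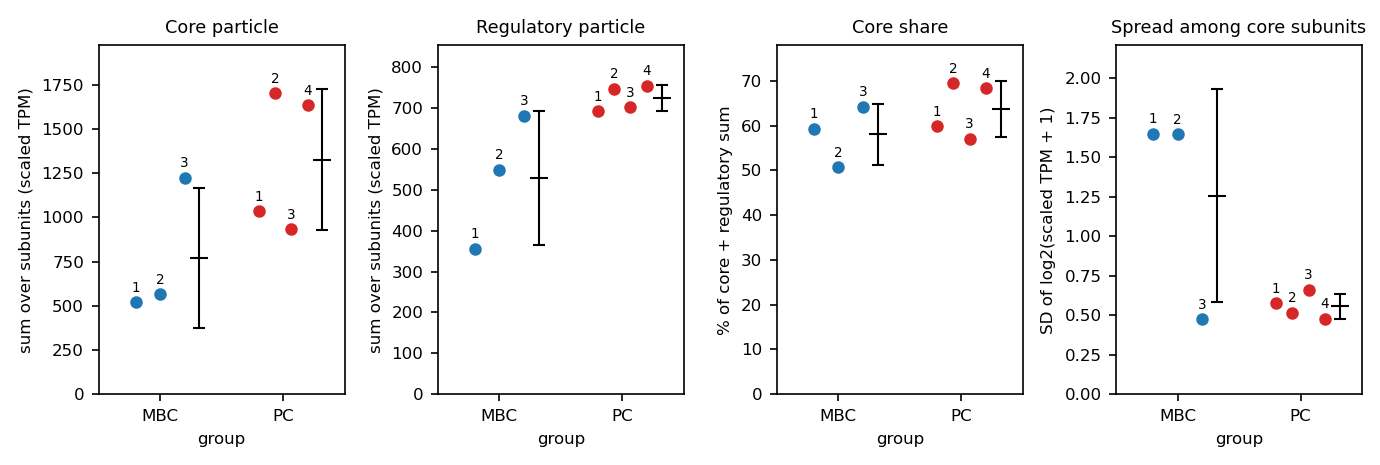
Points are libraries, numbered by replicate: the summed scaled TPM of the 14 core and of the 17 regulatory particle subunits, the core share in percent, and the SD among core subunits of log2(scaled TPM + 1); black bars give the mean and SD of each group. The regulatory particle sums do not overlap, the core sums and shares do, and MBC replicates 1 and 2 stand apart in the spread among subunits.

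The subunits of a particle are assembled in equal numbers, yet their transcripts were far from equal in MBC replicates 1 and 2. The SD of log2(scaled TPM + 1) among the 14 core subunits was 1.65 and 1.65 there, against 0.48 in MBC replicate 3 and 0.48 to 0.66 in PCs. Among the 17 regulatory particle subunits it was 1.24, 1.57 and 0.68 in MBCs and 0.64 to 0.83 in PCs. Below 10 scaled TPM lay 2, 3 and 0 core subunits in the MBC libraries and 0 in each PC library. These were Psmb3 and Psmb6 in MBC replicate 1, and Psma1, Psmb3 and Psmb4 in MBC replicate 2, so that Psmb3 alone was low in both. Psmd13, a lid subunit, was at 1.13 in MBC replicate 1 and 58.4 in MBC replicate 2. In all, 12 of the 46 genes differed by over 4-fold between these 2 libraries, 6 in each direction, and so did 24.1% of all genes tested.

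The spread between libraries of 1 group was likewise larger in MBCs. The median SD of log2(scaled TPM + 1) over the 46 genes was 1.06 in MBCs and 0.43 in PCs, against 0.91 and 0.47 over all genes tested. The SD was larger in MBCs for 41 of the 46 genes (89.1%), against 77.5% of all genes tested. Over 1715 genes of like level the medians were 0.78 and 0.33, and their median log2 fold change was -0.01. The cause of the larger spread was not tested. For differences in level, fewer cells of a type and less RNA per cell cannot be told apart in such bulk samples.

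Near-identical copies other than that of Psme2 carried little of the signal. The coding sequence of 11 of the 48 genes matched the transcript of another gene at 95% identity or more over at least 50% of its length, for 18 copies in all. Of the 16 copies in the table, 6 exceeded 1 TPM in a library, and besides Psme2 and Psme2b these were a copy of Psmd11 (at most 4.61 TPM), one of Psma4 (at most 6.89), one of Psma3 (at most 12.4) and one of Psma5 (at most 1.64).

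Genes that work with the proteasome but lie outside the symbol pattern were read from a list of 20, of which 19 were tested and Paaf1 was not analysed here. Of these, 1 was called higher in PCs (Ubb) and 0 lower with all libraries, where 6.41% of all genes tested were called higher and 2.14% lower. At an unadjusted p under 0.05, 3 were higher and 0 lower (limma), where 15.3% of all genes tested were higher. Without MBC replicate 3, 4 were called higher, against 13.8% of all genes tested. The median log2 fold change was 0.46, against 0.14 over all genes tested. Of the 3 listed genes of ubiquitin and its activation, only Ubb was called with all libraries. The median log2 fold change of the 3 was 0.13. Ubb encodes a chain of ubiquitin, the tag that marks proteins for the proteasome. It was at 63.4, 45.2 and 227 scaled TPM in MBCs and 385, 413, 264 and 397 in PCs. In scaled values all PC libraries lay above all MBC libraries, with MBC replicate 3 the nearest to them, and the difference for Ubb was 2.04 on the log2 scale (SE 0.52, adjusted p = 0.0396, limma). In TPM as deposited, Ubb was at 466 in MBC replicate 3, above every PC library (214 to 284), and the difference was 0.72 (adjusted p = 0.382). The call for Ubb was lost without any 1 library other than MBC replicate 3, at adjusted p of 0.0710 to 0.126, and with immunoglobulin genes removed (adjusted p = 0.0883). It was also lost after quantile normalization (adjusted p = 0.221), with pseudocount 0.1 (0.0508) and with all genes above 0 tested (0.128, limma). With the replicate block by title code or number the adjusted p was 0.0530 and 0.130 (limma). The call held with the title prefix in the fit (0.0154) and in the more frequent prefix alone (0.00754, limma).

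Pomp, the chaperone that matures the core, was at 29.0, 57.8 and 83.6 scaled TPM in MBCs and 67.9, 82.2, 90.0 and 88.7 in PCs. Of the subunits outside the pattern, the ubiquitin receptor Adrm1 was at 2.35, 29.0 and 19.4 in MBCs and 18.7, 29.6, 12.6 and 34.6 in PCs, and the small lid subunit Sem1 at 0.346, 23.8 and 12.5 in MBCs and 5.79, 12.1, 8.92 and 13.1 in PCs. Both were lowest in MBC replicate 1, the library in which Psmb6 and Psmd13 were also low. Nfe2l1, the factor that restores proteasome transcription when degradation is blocked, was at 17.3, 49.5 and 14.5 in MBCs and 47.6, 26.7, 19.1 and 22.8 in PCs. None of these 4 was called, and the interval of Nfe2l1 was -0.93 to 1.37 on the log2 scale.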

How the data were processed

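The authors deposited TPM (abundance per transcript length, scaled so that each library has an equal total) for 48795 Ensembl genes in 7 libraries, rounded to 2 decimals. The submitters' processing notes name STAR 2.5.2a, RSEM 1.3.0, DESeq2 1.18.1 and build GRCm38, without roles. RSEM assigns reads that fit several genes, which could affect copies. TPM holds no read totals, so no counting interval is given.

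Symbols and coordinates came from GENCODE M21 by gene ID, which named 48349 genes. TPM was divided by each library's median ratio to the geometric mean over 9305 genes above 0 in all libraries. Genes that reached 1 TPM in 3 or more libraries (11573) entered limma 3.58.1 (R 4.3.3, trended eBayes, all 7 libraries, no covariate) as log2(scaled TPM + 1), with p adjusted by Benjamini-Hochberg over all of them. A gene was called at an adjusted p under 0.05; all called genes also differed by 1 or more on the log2 scale. Fold changes, PC minus MBC, are on the log2(value + 1) scale, which understates those of low genes. The fit takes 1 variance per gene for both groups. MBC libraries spread more and are fewer, so SEs and p-values can be too small. The limma procedure was run on simulated data with the same spread in both groups. These libraries spread more in MBCs, so that run does not cover their setting. Other steps used scipy 1.17.1, numpy 2.4.6 and pandas 2.3.3 under Python 3.11.15.

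The genes, their roles and the other lists were chosen with earlier results of these data known. Values in each library are given for catalytic subunits, Psmb10, core chaperones, activator caps, Psmf1 and, in every other role, the tested member with the largest and the smallest log2 fold change, and outside the pattern for Pomp, Adrm1, Sem1, Nfe2l1, Psmb8 and Psmb9. Values of Psmb1, Psmb3, Psmd5, Psmd13, Psmc3ip and Ubb were added after they were seen. Some genes of the list outside the pattern are not reported here. The alternatives were other scalings, pseudocount and filter, leaving out each library, a replicate block and the prefix of the title code.

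Title codes occur in both groups for 3 of 4 codes, but the labels do not say what they mark.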

Additional observations from a re-analysis of the deposited data

Results flagged for a closer look

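In 2 of 54 results examined in the 4 PC libraries, 1 library lay far from the others by Dixon's test of the gap at the ends; about 1 in 20, or 2.7 of the 54, would do so by chance. Psmb10 was at 30.6 scaled TPM in PC replicate 3, where the other PC libraries were at 58.4, 60.0 and 60.3. Psme3 was at 140.0 scaled TPM in PC replicate 1, where the other PC libraries were at 37.9, 37.9 and 44.9. Groups of 3 are not examined this way, so the MBC libraries were not.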

How the results depend on the processing

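The number of proteasome genes called higher in PCs, 1 with all libraries, was 0 with TPM as deposited, with immunoglobulin genes removed, after quantile normalization and with the replicate block by title code or by number, where 4.10, 3.49, 5.83, 3.75 and 3.37% of all genes tested were called higher. It was 3 with the title prefix in the fit (Psmb1, Psmb3 and Psme4; 6.88% of all genes) and 5 in libraries of the more frequent prefix alone (Psma7, Psmb1, Psmb3, Psmc1 and Psme4; 7.54%). Leaving out 1 library gave 0 to 16 higher and 0 to 1 lower, the upper end of both without MBC replicate 3, while 3.90 to 13.8% of all genes were called higher and 0.786 to 7.97% lower. The number called lower was 7 with TPM as deposited (Psma4, Psmc5, Psmd11, Psmd14, Psme1, Psme2 and Psme2b), where 26.1% of all genes were called lower, and 1 (Psme2b) in libraries of the more frequent prefix, where 3.6% were. The TPM as deposited lowers all genes of PC libraries by construction, since immunoglobulin genes fill them. The cause of the other changes was not tested.

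The replicate block was tried because codes and numbers recur in both groups. The correlations of deviations of libraries of a shared code were 0.109, -0.00436 and 0.222, and those of a shared number 0.109, -0.0398 and -0.0832. So few values cannot tell whether codes or numbers pair the libraries. With the replicate block by title code the log2 fold change of Psme4 was 1.32 (adjusted p = 0.197), and by replicate number 1.44 (adjusted p = 0.216, limma).

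None of the following log2 fold changes, whose sign turned, was called with all libraries scaled. With TPM as deposited they were Psmb5 -0.61, Psmb7 -0.87, Psmb10 -1.01, Psmg3 -0.39, Psme3 -1.20, Psmf1 -1.04, Psma4 -1.28, Psmb2 -0.15, Psmd2 -0.49, Psmd4 -0.91, Psmd10 -1.02, Pomp -0.66, Adrm1 -0.34, Sem1 -0.58 and Nfe2l1 -1.05. With immunoglobulin genes removed they were Psme3 -0.18, Psmf1 -0.058, Psma4 -0.26, Psmd10 -0.065 and Nfe2l1 -0.053. After quantile normalization they were Psma4 -0.14 and Psmd10 -0.11, with the replicate block by title code Psma4 -0.068 and Psmd10 -0.057, by replicate number Psma4 -0.13 and Psmd10 -0.066, and in the more frequent prefix Psma4 -0.15 and Nfe2l1 -0.020.

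Leaving out 1 library at a time gave ranges that cross 0 for Psmb10 (-0.70 to 1.04), Psmg3 (-0.51 to 1.33), Psme3 (-0.34 to 0.28), Psmf1 (-0.013 to 0.43), Psma4 (-0.22 to 0.30), Psmc5 (-0.28 to 0.078), Psmd4 (-0.42 to 0.82), Psmd14 (-0.49 to 0.17), Psmd10 (-1.02 to 1.04), Adrm1 (-0.087 to 1.49), Sem1 (-0.79 to 1.31), Nfe2l1 (-0.10 to 0.75) and Psmb8 (-0.19 to 0.14). The log2 ratio of Psmb9 to Psmb6 then differed by -2.14 to 1.51 and that of Psmb10 to Psmb7 by -0.87 to 0.60. The difference between core and regulatory particle and the share of the core moved by less than the SD within groups under the alternatives run, and the share of promoters with the motif was 7.5% on the strand of the gene alone, against 7.29% of all genes. Depth could not be read from TPM, so low values have unknown counting error.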
